A study of Homo sapiens with 8 samples.

Results

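The ERBB receptors and their ligands were followed through RNA sequencing of LK2 cells, a line established from a human squamous carcinoma of the lung. The 10 genes were taken by name from the 26760 genes of the deposited count table: the 4 receptor genes EGFR, ERBB2, ERBB3 and ERBB4, and the 6 ligand genes TGFA, HBEGF, AREG, EREG, BTC and NRG1. No cutoff on a measured value was used, but the genes were chosen with earlier results of these data known.

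The 8 libraries form 4 groups of 2. Cells labelled DNp63 carried a constitutive lentiviral vector, pLEX_306-DNp63 in replicate 1 and pLEX_307-DNp63 in replicate 2, which expresses DNp63, a p63 transcription factor isoform without the N-terminal activation domain. Their controls, labelled GFP, carried pLEX_306-GFP and pLEX_307-GFP. Induced cells carried the doxycycline-controlled vector pLIX_403-DNp63 and received doxycycline at 2 µg per ml for 6 days, and uninduced cells carried the same vector without the drug. All cells were kept in RPMI-1640 medium with serum. The promoters that drive the constitutive inserts, and whether the cells of a group were clones or separate infections, are not given in the labels. The p-values therefore measure the spread between these libraries, which may be technical. In the DNp63 and GFP groups the 2 replicates also differ in vector, so their spread holds any difference between the vectors. The doxycycline comparison has no library of drug-treated cells lacking the DNp63 insert, so an effect of the drug cannot be told apart from that of DNp63.

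ERBB receptors are tyrosine kinases of the cell surface that act in pairs. TGFA, HBEGF, AREG, EREG and BTC are made as membrane-bound precursors, are cut free by ADAM proteases and bind EGFR, and some of them also bind ERBB4. NRG1 binds ERBB3 and ERBB4. ERBB2 has no known ligand and is the preferred partner of the others, while ERBB3 has very little kinase activity of its own and recruits PI3-kinase from within such pairs. In stratified epithelia, where p63 maintains the basal layer, ligands of EGFR are made by the keratinocytes themselves and drive their growth and migration. The comparisons ask which of these genes differ when DNp63 is raised.

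The upstream sequence is shown for TGFA and HBEGF, the 2 ligand genes with higher levels in DNp63 cells, so that their promoters can be set side by side. RefSeq sequences of GRCh38.p14 were matched for 8 of the 10 genes. The stretches are the 250 bases before the annotated start, both on the minus strand, chr2:70553827-70554076 for the first listed start of TGFA and chr5:140346604-140346853 for HBEGF, written 5′ to 3′ along the gene. Capitals mark GGGCGG or its reverse complement, the GC box.
TGFA: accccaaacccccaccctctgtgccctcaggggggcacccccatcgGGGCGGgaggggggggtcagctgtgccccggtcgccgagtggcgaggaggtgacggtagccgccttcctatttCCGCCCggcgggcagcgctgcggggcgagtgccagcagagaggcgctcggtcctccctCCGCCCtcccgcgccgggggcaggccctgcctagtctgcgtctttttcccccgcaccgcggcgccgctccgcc
HBEGF: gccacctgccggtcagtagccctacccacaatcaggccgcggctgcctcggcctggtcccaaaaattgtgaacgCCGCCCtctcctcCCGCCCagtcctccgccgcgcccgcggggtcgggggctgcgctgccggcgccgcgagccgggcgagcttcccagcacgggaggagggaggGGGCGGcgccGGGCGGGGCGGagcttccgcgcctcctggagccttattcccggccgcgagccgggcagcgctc
Both stretches are rich in G and C, at 75.6% in TGFA and 76.4% in HBEGF, above 90.7% and 91.9% of the 35116 windows of the same length. A second listed start of TGFA has 64.0% and no GC box. TGFA holds 3 GC boxes and HBEGF 5, of which a pair overlap, and 42.6% of all windows hold at least 1. Neither holds the AP-1 sequence TGANTCA, present in 6.57% of windows, nor the TATA sequence TATAAA, present in 10.7%. The strict paired core of p53 family sites, CATG repeated after a fixed gap, is in neither and in 0.296% of all windows. These are matches of letters on both strands within a short window, and distant sites were not searched.

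Library totals ran from 2758158 to 10372248 counts, and 3 counts in a single library correspond to 0.292 to 1.11 CPM, the count scaled to a common library size. TP63, the overexpressed gene, stood at 1850.0 and 3816 CPM in DNp63 cells against 0.739 and 1.91 CPM in GFP cells, and at 412 and 422 CPM in induced cells against 12.7 and 14.8 CPM in uninduced cells. Of the 8 squamous markers, KRT14 had no count anywhere and KRT5 reached at most 0.635 CPM outside the DNp63 libraries, where it had 398 and 18.8 CPM. SOX2 had 68.3 and 96.4 CPM in DNp63 against 278 and 517 CPM in GFP libraries, and 337 and 278 CPM in induced against 575 and 537 CPM in uninduced libraries, with lower values under raised DNp63 and no overlap in either system (adjusted p = 0.00125 for DNp63 against GFP and 0.464 for induced against uninduced). KRT6A, CALML3 and TRIM29 were called higher in both systems, for example CALML3 with 451 and 552 CPM in DNp63 against 5.54 and 1.48 CPM in GFP libraries, and DSG3 was called higher for DNp63 against GFP (adjusted p = 0.0104) and not for induced against uninduced (0.996). Without TP63 the squamous markers summed to 1213 to 1552 CPM in DNp63, 306.7 to 539.6 CPM in GFP, 390.9 to 449.1 CPM in induced and 557.1 to 597.3 CPM in uninduced libraries. The lung lineage factor gene NKX2-1 had 4.66 to 11.9 CPM in every library. The other lung adenocarcinoma markers were absent or nearly so, with no count for NAPSA and SFTPC and at most 0.212 CPM for SFTPB. The fibroblast gene DCN and the endothelial gene PECAM1 had no count. The endothelial gene KDR had 1.11 and 2.33 CPM in GFP libraries and 0 CPM in DNp63 libraries. KDR had 1.48 and 0.59 CPM in induced and 2.21 and 2.14 CPM in uninduced libraries. Summed immune and endothelial markers were at 3.14 to 3.3 CPM in DNp63 and 4.06 to 4.45 CPM in GFP libraries. In induced libraries these summed to 1.48 to 2.36 CPM, and in uninduced libraries to 3.6 to 4.63 CPM. Summed fibroblast markers were at 16.0 to 30.3 CPM in DNp63 and 16.9 to 20.3 CPM in GFP libraries. The fibroblast sums were 8.28 to 14.8 CPM in induced and 14.5 to 16.9 CPM in uninduced libraries, nearly all of it COL1A1. Summed neuroendocrine markers, nearly all INSM1, were at 10.7 to 21.1 CPM in DNp63, 30.9 to 47.7 CPM in GFP, 16.1 to 23.6 CPM in induced and 24.8 to 26.4 CPM in uninduced libraries, and the part of these marker lists in the results was not tested. In bulk RNA, fewer cells with a transcript and less transcript per cell cannot be told apart.

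Of the 10 genes, 7 had enough counts to be tested (EGFR, ERBB2, ERBB3, TGFA, HBEGF, BTC and NRG1) and 3 did not (ERBB4, AREG and EREG). HBEGF passed the filter only through the DNp63 group, where it was high, so it is left out of the counts here and described by its own counts. Of the other 6, ERBB2 and TGFA were called higher at an adjusted p below 0.05 in the average over both systems and none was called lower, where 3.26% of all 12303 tested genes were higher. In DNp63 against GFP cells ERBB2 and TGFA were again called higher, against 4.17% of all genes, and their groups did not overlap, as for 22.4% of genes in that direction. In induced against uninduced cells none of the 7 was called by edgeR, 2 had an unadjusted p under 0.05 (TGFA and ERBB2) and DESeq2 called 1 (TGFA). Of all genes edgeR called 0.284% there, and 6.04% had an unadjusted p under 0.05. Induced libraries lay above uninduced ones without overlap for EGFR, ERBB2, ERBB3 and TGFA, as for 22.9% of genes.

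**Figure D1:**
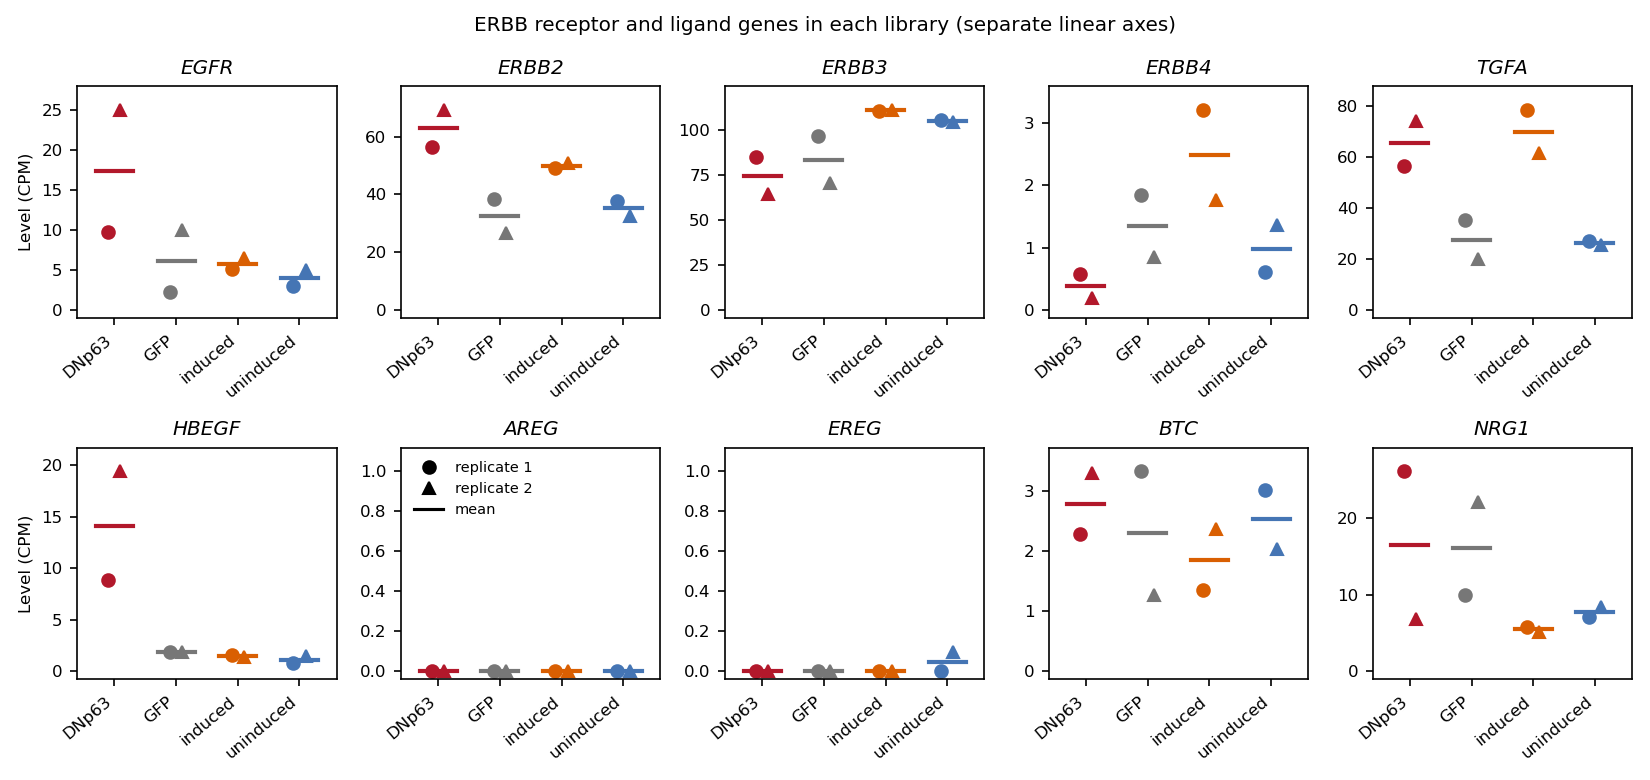
CPM of the 10 genes in each library, with circles for replicate 1, triangles for replicate 2 and a line at the mean of 2, each panel on its own linear axis. TGFA and ERBB2 lie higher in all 4 libraries with raised DNp63 than in all 4 controls, HBEGF is high in the DNp63 group alone, and AREG has no count in any library.

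Among the receptors, ERBB2 was the only gene called higher. It had 56.6 and 69.3 CPM in DNp63 cells, against 38.4 and 26.7 CPM in GFP cells. It had 49.2 and 50.8 CPM in induced cells, against 37.8 and 32.6 CPM in uninduced cells. All 4 libraries with raised DNp63 thus lay above all 4 controls, which held for 4.24% of tested genes in that direction. The log2 fold change was 0.97 ± 0.24 for DNp63 against GFP (SE, n = 2 per group; adjusted p = 0.0335) and 0.51 ± 0.23 for induced against uninduced (adjusted p = 0.823). The average of the systems was 0.74 ± 0.16 (adjusted p = 0.0272). The averaged value no longer passed without GFP replicate 2 (0.60; adjusted p = 0.0874), uninduced replicate 1 (0.79; 0.107) or 2 (0.68; 0.181), or induced replicate 1 (0.74; 0.129) or 2 (0.72; 0.119). The DNp63 against GFP call failed when GFP replicate 2 (adjusted p = 0.201) or DNp63 replicate 2 (0.0711) was dropped, and when each uninduced (0.0785 and 0.078) or induced library (0.08 and 0.0803) was dropped, and in a fit to the constitutive libraries alone (0.185).

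EGFR, the receptor of most of these ligands, was not called by the main fit, which has no term for the vector. It had 9.72 and 25.02 CPM in DNp63 cells and 2.22 and 9.95 CPM in GFP cells. In each vector pair the DNp63 library was higher, 4.38-fold for pLEX_306 and 2.51-fold for pLEX_307, yet the groups overlapped because the pLEX_307-GFP library lay just above the pLEX_306-DNp63 library. It had 5.06 and 6.49 CPM in induced cells and 3.02 and 5.06 CPM in uninduced cells, where the values nearly touched. The log2 fold change was 1.44 ± 0.61 for DNp63 against GFP (adjusted p = 0.18) and 0.46 ± 0.62 for induced against uninduced (adjusted p = 0.996). With each library left out in turn, the DNp63 against GFP value lay between 0.57 (without DNp63 replicate 2) and 2.97 (without GFP replicate 2), with adjusted p values from 0.0638 to 0.629. With the replicate number as a block, which in the constitutive system is also the vector, it was 1.58 and was called (adjusted p = 0.0207). The edgeR fit without the filter, which has no vector term, gave 1.40 and also called it (adjusted p = 0.0105). That unfiltered fit called 245 genes for uninduced against GFP, where the main fit called 1.

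ERBB3, the receptor with little kinase activity, was not called in any comparison. Its values were 85.2 and 64.2 CPM in DNp63 cells against 96.4 and 70.3 CPM in GFP cells, and 110.7 and 111 CPM in induced cells against 106 and 105 CPM in uninduced cells. Its averaged log2 fold change was −0.04 ± 0.15 (adjusted p = 0.93), and neither system's own comparison was called (adjusted p = 0.741 and 0.996). The ratio of ERBB2 to ERBB3 counts, which does not depend on library scaling, was 0.664 and 1.08 in DNp63 cells against 0.399 and 0.38 in GFP cells. It was 0.444 and 0.457 in induced cells against 0.358 and 0.312 in uninduced cells.

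ERBB4, a receptor for NRG1 and for some ligands of EGFR, was too sparse for the test. Its counts were 2 and 1 in DNp63 libraries against 5 and 4 in GFP libraries, and 26 and 9 in induced libraries against 3 and 14 in uninduced libraries. The ratio of summed CPM was 0.286 for DNp63 over GFP, with a 95% exact interval of 0.0498 to 1.15. It was 2.38 for induced over uninduced, with an interval of 1.3 to 4.54. Such intervals cover counting error only and not the spread between libraries.

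Length-scaled levels, in CPM per kb of annotated exon, place the receptors in order. In GFP cells ERBB3 was highest at 11.2 ± 2.49 CPM per kb (SD, n = 2), followed by ERBB2 at 5.75 ± 1.47, EGFR at 0.537 ± 0.483 and ERBB4 at 0.111 ± 0.0583. The ranges of ERBB3 and ERBB2 did not overlap in GFP cells, nor in induced cells (14.9 ± 0.0453 against 8.82 ± 0.199) or uninduced cells (14.1 ± 0.109 against 6.22 ± 0.658). In DNp63 cells the order of ERBB2, at 11.1 ± 1.58, and ERBB3, at 10.1 ± 1.99, could not be told from their spread. EGFR stayed below both in every library, with at most 2.21 CPM per kb. Among the ligands TGFA was highest in every library. In DNp63 cells HBEGF came next at 5.92 ± 3.12 CPM per kb, whereas in the other groups HBEGF, NRG1 and BTC lay within 0.337 and 2.39 CPM per kb. The exon lengths come from GENCODE 29 and not from the annotation used for counting, which the sources used here do not give.

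**Figure D2:**
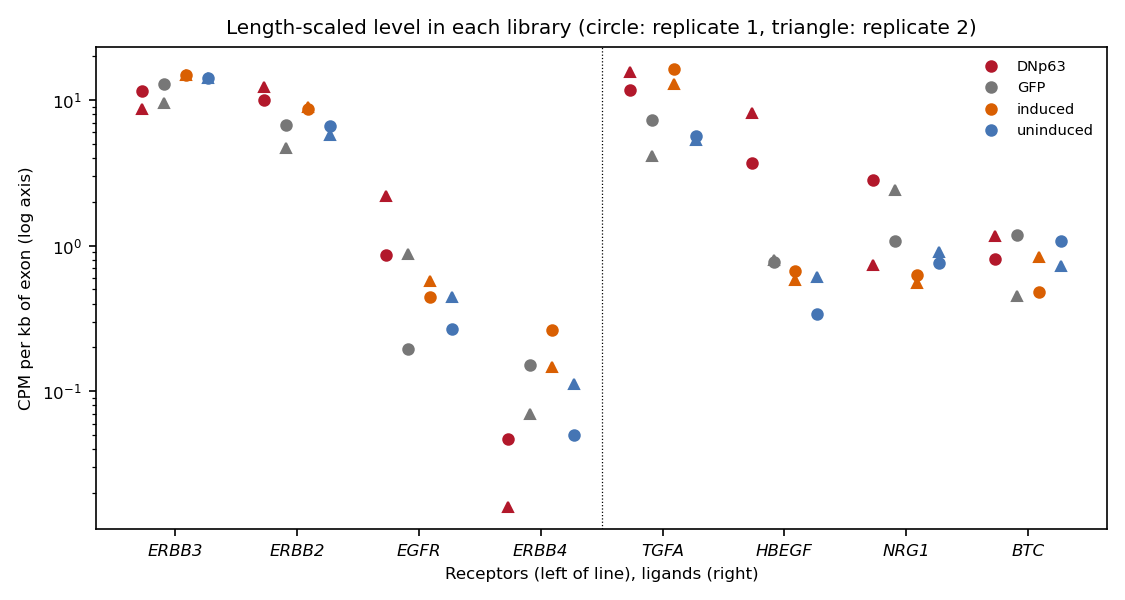
CPM per kb of exon on a log axis for the 8 genes with more than 1 count in all, receptors left of the dotted line and ligands right, with circles for replicate 1 and triangles for replicate 2. ERBB3, ERBB2 and TGFA form the upper band, EGFR and ERBB4 lie below, and HBEGF ranges from 0.337 to 8.13 CPM per kb.

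TGFA, the transforming growth factor alpha gene, had log2 fold changes of similar size in both systems. It had 56.6 and 74.3 CPM in DNp63 cells, against 35.1 and 19.9 CPM in GFP cells. It had 78.4 and 61.4 CPM in induced cells, against 27.0 and 25.6 CPM in uninduced cells. Every library with raised DNp63 lay above every control. The log2 fold change was 1.28 ± 0.28 for DNp63 against GFP (adjusted p = 0.0218), 1.42 ± 0.27 for induced against uninduced (adjusted p = 0.112) and 1.35 ± 0.20 averaged over both (adjusted p = 0.00299). The difference between the systems, induced minus constitutive, was 0.14 ± 0.39 and was not called (adjusted p = 0.939).

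The averaged TGFA call held with each library left out in turn, with values of 1.15 to 1.56 and adjusted p values of 0.00109 to 0.0327. The constitutive value no longer passed without GFP replicate 2 (0.89; adjusted p = 0.147), DNp63 replicate 2 (1.08; 0.0502), or induced replicate 1 (1.27; 0.053) or 2 (1.27; 0.052), and in a fit to the constitutive libraries alone (0.124). For induced against uninduced, leaving out any of the GFP or DNp63 libraries brought the adjusted p to between 0.0261 and 0.0354 at an unchanged size of 1.42. Leaving out uninduced replicate 1 (1.45; adjusted p = 0.962) or 2 (1.37; 1.0), or induced replicate 1 (1.22; 1.0) or 2 (1.58; 0.316) gave no call. A fit to the inducible libraries alone gave 1.43 with an adjusted p of 1.66e-07, and DESeq2 gave 1.42 with 0.00169. The libraries of the constitutive system spread more widely, with a median difference between replicates of 0.405 (DNp63) and 0.371 (GFP) on the log2 scale, against 0.22 (induced) and 0.17 (uninduced), and the shared fit takes 1 spread from all of them.

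HBEGF, the gene of a heparin-binding ligand of EGFR and ERBB4, had its highest counts in constitutive DNp63 cells. Its counts were 31 and 100 in DNp63 libraries, against 5 and 9 in GFP libraries, which is 8.86 and 19.4 CPM against 1.85 and 1.91 CPM. In the inducible system the counts were 13 and 7 in induced libraries against 4 and 15 in uninduced libraries, or 1.61 and 1.38 CPM against 0.805 and 1.46 CPM. The groups did not overlap in the constitutive system and overlapped in the inducible one. A gene that enters the test only through its high group had to differ, so its p-value in that fit is no independent support. The log2 fold change was 2.91 ± 0.57 for DNp63 against GFP (adjusted p = 0.00984) and 0.33 ± 0.61 for induced against uninduced (adjusted p = 0.996). An edgeR fit without the filter gave an adjusted p of 1.6e-05 for DNp63 against GFP from the same counts. That fit also called 245 genes for uninduced against GFP, where the main fit called 1, so its smaller p is no independent support either. The ratio of summed CPM was 8.03 for DNp63 over GFP (95% exact interval 4.62 to 15.1) and 1.22 for induced over uninduced (0.617 to 2.41).

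The difference between the systems' HBEGF effects, induced minus constitutive, was −2.58 ± 0.84 and did not pass the test over all genes (adjusted p = 0.236), in which edgeR called 0.545% of all genes and none of the 7 tested here. Its unadjusted p in that test was 0.0098, which is no independent support, since HBEGF entered the test only through the DNp63 group. None of the other 6 had an unadjusted p under 0.05, where 12.2% of all genes did, and DESeq2 called none of the 7. The averaged value of 1.62 ± 0.42 had an adjusted p of 0.046, and its call was kept only without DNp63 replicate 1 (0.0153). It was lost without any other library, with adjusted p values of 0.0749 to 0.206, and with edgeR's newer estimates (0.0615). Dropping GFP replicate 2 (2.93; adjusted p = 0.0826) or DNp63 replicate 2 (2.22; 0.0602) ended the constitutive call.

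**Figure D3:**
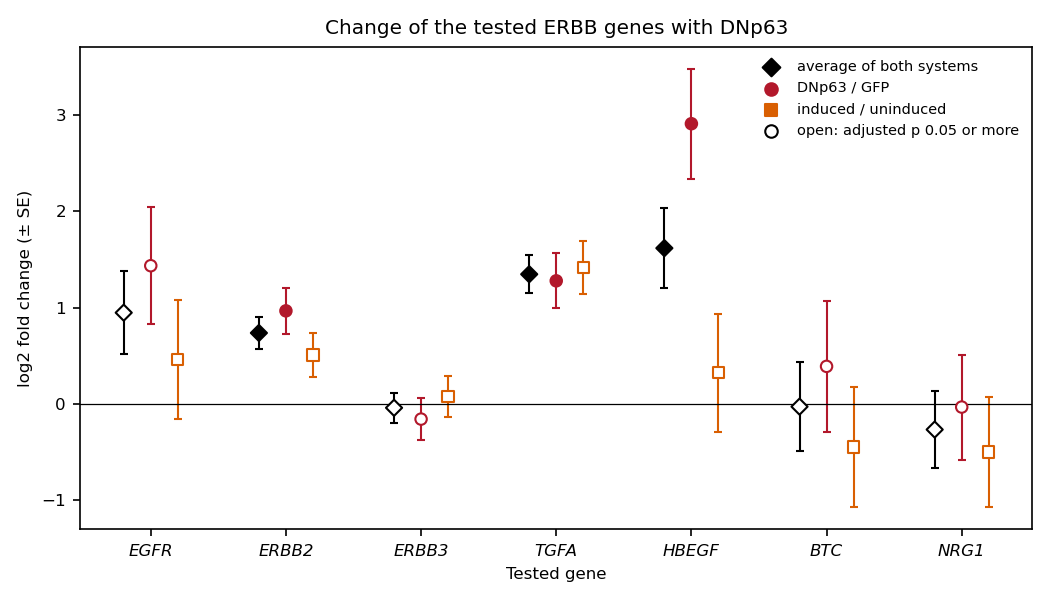
Log2 fold changes with SE for the 7 tested genes, averaged over both systems (diamonds), for DNp63 against GFP (circles) and for induced against uninduced (squares), filled where the adjusted p is below 0.05. TGFA has nearly the same value in both systems, 1.28 and 1.42, while HBEGF has 2.91 and 0.33.

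**Figure D4:**
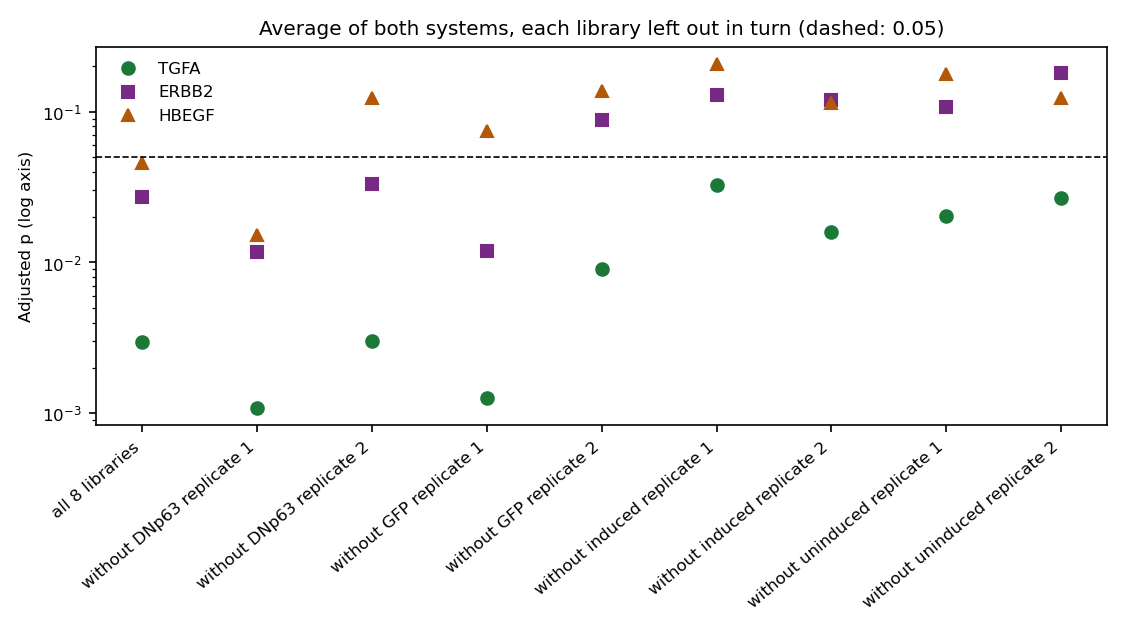
Adjusted p, on a log axis, of TGFA, ERBB2 and HBEGF in the averaged comparison with all 8 libraries and with each library left out in turn, with a dashed line at 0.05. TGFA stays below the line throughout, ERBB2 in 3 of the 8 fits with a library left out, and HBEGF in 1.

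NRG1, the neuregulin gene, went opposite ways in the 2 vector pairs of the constitutive system. It had 26.0 CPM with pLEX_306-DNp63 against 9.98 CPM with pLEX_306-GFP, a ratio of 2.61, and 6.79 CPM with pLEX_307-DNp63 against 22.02 CPM with pLEX_307-GFP, a ratio of 0.308. The group difference was therefore close to 0, at −0.03 ± 0.55 on the log2 scale (adjusted p = 0.981), and its direction depended on the library left out. It was 0.66 both with GFP replicate 2 dropped (adjusted p = 0.69) and with DNp63 replicate 2 dropped (0.347), −0.47 without GFP replicate 1 (0.684) and −1.28 without DNp63 replicate 1 (0.143). In the inducible system NRG1 had 5.81 and 5.11 CPM in induced cells against 7.04 and 8.36 CPM in uninduced cells, with −0.50 ± 0.57 (adjusted p = 0.995). The groups did not overlap there, as for 24.0% of genes in that direction.

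BTC, the betacellulin gene, stayed at low counts without a direction. It had 2.29 and 3.3 CPM in DNp63 cells against 3.33 and 1.27 CPM in GFP cells, and 1.36 and 2.36 CPM in induced cells against 3.02 and 2.04 CPM in uninduced cells. Groups overlapped in both systems, and the log2 fold changes of 0.39 ± 0.68 and −0.44 ± 0.62 were not called (adjusted p = 0.797 and 0.996).

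AREG, the amphiregulin gene, was listed at 0 in all 8 libraries, and EREG, the epiregulin gene, had 1 count in uninduced replicate 2 and 0 elsewhere. At these depths a count of 0 allows up to 0.292 to 1.11 CPM per library. The AREG value is uncertain, since the hg19 assembly carries a near-identical second copy, AREGB, which is a synonym of AREG in the RefSeq table and has no row of its own in the counts. How reads matching both copies were counted is not stated in these sources.

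The control groups were also compared, since TP63 was higher in both uninduced libraries than in both GFP libraries. That TP63 difference was 3.23 ± 0.58 on the log2 scale and was not called (adjusted p = 0.165). None of the 7 genes was called in uninduced against GFP cells by edgeR or DESeq2, and none had an unadjusted p under 0.05, where edgeR called 0.00813% of all genes and 9.1% had an unadjusted p under 0.05. NRG1 differed by −1.08 ± 0.55 on the log2 scale (adjusted p = 0.609), with a range of −1.50 (without GFP replicate 1) to −0.36 (without GFP replicate 2) over left-out libraries. It had 7.04 and 8.36 CPM in uninduced cells and 9.98 and 22.02 CPM in GFP cells.

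The rest of the pathway was taken from 7 lists holding 86 genes, of which 76 were tested. In the averaged comparison 2 were higher and 1 lower, beside 3.26% and 2.41% of all genes. For DNp63 against GFP 1 was higher and 5 were lower, beside 4.17% and 3.99%, and for induced against uninduced 1 was higher, beside 0.236%. Of 5 further ERBB ligand genes only EGF was tested and it was not called. EGF, the epidermal growth factor gene, had 6.57 and 3.88 CPM in DNp63 cells against 14.0 and 9.32 CPM in GFP cells, and 17.7 and 10.4 CPM in induced cells against 6.44 and 9.72 CPM in uninduced cells. Its log2 fold changes were −1.16 ± 0.44 (adjusted p = 0.142) and 0.79 ± 0.39 (adjusted p = 0.894). NRG2, NRG3, NRG4 and EPGN had 0 to 12 counts in each library.

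No gene of the ligand release list, the ADAM proteases and their iRhom partners, was called in either system (7 tested, median log2 fold change 0.28 for DNp63 against GFP). The sheddase gene ADAM17 stood at 0.49 ± 0.18 (adjusted p = 0.13) and the iRhom genes RHBDF1 and RHBDF2 at 0.67 ± 0.27 (adjusted p = 0.174) and 0.53 ± 0.24 (adjusted p = 0.21). These 3 were chosen after their values were seen. In the same comparison ADAM9 (−0.37 ± 0.21), ADAM10 (−0.39 ± 0.32) and ADAM15 (−0.08 ± 0.33) went the other way. None of the 17 adaptor and RAS-ERK kinase genes was called in either system either (median 0.17 for DNp63 against GFP).

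In the PI3K-AKT list 1 of 12 genes was called, PHLPP1, a phosphatase gene whose product dephosphorylates AKT, which was lower. PHLPP1 averaged 35.5 CPM in DNp63 cells against 157 CPM in GFP cells, and 88.3 CPM in induced cells against 125 CPM in uninduced cells. Its log2 fold change was −2.14 ± 0.19 for DNp63 against GFP (adjusted p = 0.000202), −0.50 ± 0.18 for induced against uninduced (adjusted p = 0.587) and −1.32 ± 0.13 averaged (adjusted p = 0.000275). The difference between the systems, at 1.64 ± 0.26, was itself called (adjusted p = 0.0305). Both the averaged and the constitutive call held with each library left out. The call on the difference was lost without GFP replicate 2 or any induced or uninduced library, with values of 1.54 to 1.74 and adjusted p values up to 0.272.

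Of 17 feedback inhibitor genes none was called in the averaged comparison, and 2 were lower in DNp63 against GFP cells. LRIG1, whose product promotes the degradation of ERBB receptors, had −1.52 ± 0.40 (adjusted p = 0.0456), and DUSP4, an ERK phosphatase gene, had −1.38 ± 0.26 (adjusted p = 0.00993). In induced against uninduced cells they had −0.22 ± 0.39 and 0.05 ± 0.25 (adjusted p = 0.996 for both). Both were named after their values were seen. With libraries left out, LRIG1 ranged from −2.55 to −0.95 and was called only without GFP replicate 1 or DNp63 replicate 2. DUSP4 ranged from −1.75 to −1.07 and was lost without GFP replicate 2 (adjusted p = 0.0666).

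Among 11 ERK-responsive transcripts EPHA2, an ephrin receptor gene, was higher in the averaged comparison (1.53 ± 0.16; adjusted p = 0.00046). EPHA2 averaged 300.7 CPM in DNp63 cells against 79.8 CPM in GFP cells, and 78.2 CPM in induced cells against 35.5 CPM in uninduced cells. The log2 fold change was 1.92 ± 0.23 for DNp63 against GFP (adjusted p = 0.000909). For induced against uninduced it was 1.14 ± 0.23 and was not called (adjusted p = 0.126). Uninduced against GFP cells differed by −1.16 ± 0.24, also not called (adjusted p = 0.242). In the same list 2 transcription factor genes were lower in DNp63 against GFP cells, ETV5 (−0.81 ± 0.21; adjusted p = 0.0405) and MYC (−0.91 ± 0.24; adjusted p = 0.0435), both named after their values were seen. ETV5 was called only without GFP replicate 2 or DNp63 replicate 2 (adjusted p up to 0.107 otherwise), and MYC only without GFP replicate 1 or DNp63 replicate 1 (up to 0.222 otherwise). EPHA2 kept its averaged and constitutive calls with each library left out. The list thus held calls in both directions, and its median was −0.42 for DNp63 against GFP and 0.33 for induced against uninduced.

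In the receptor trafficking and folding list 1 of 11 genes was called, HSP90AA1, the gene of a chaperone on which ERBB2 depends. It averaged 874 CPM in DNp63 cells against 591 CPM in GFP cells (0.56 ± 0.20; adjusted p = 0.117), and 1638 CPM in induced cells against 577 CPM in uninduced cells (1.50 ± 0.20; adjusted p = 0.0156). Averaged over both systems it was 1.03 ± 0.14 higher on the log2 scale (adjusted p = 0.00186), a call that held with each library left out. The induced call was lost without any induced or uninduced library, with adjusted p values up to 0.346.

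**Figure D5:**
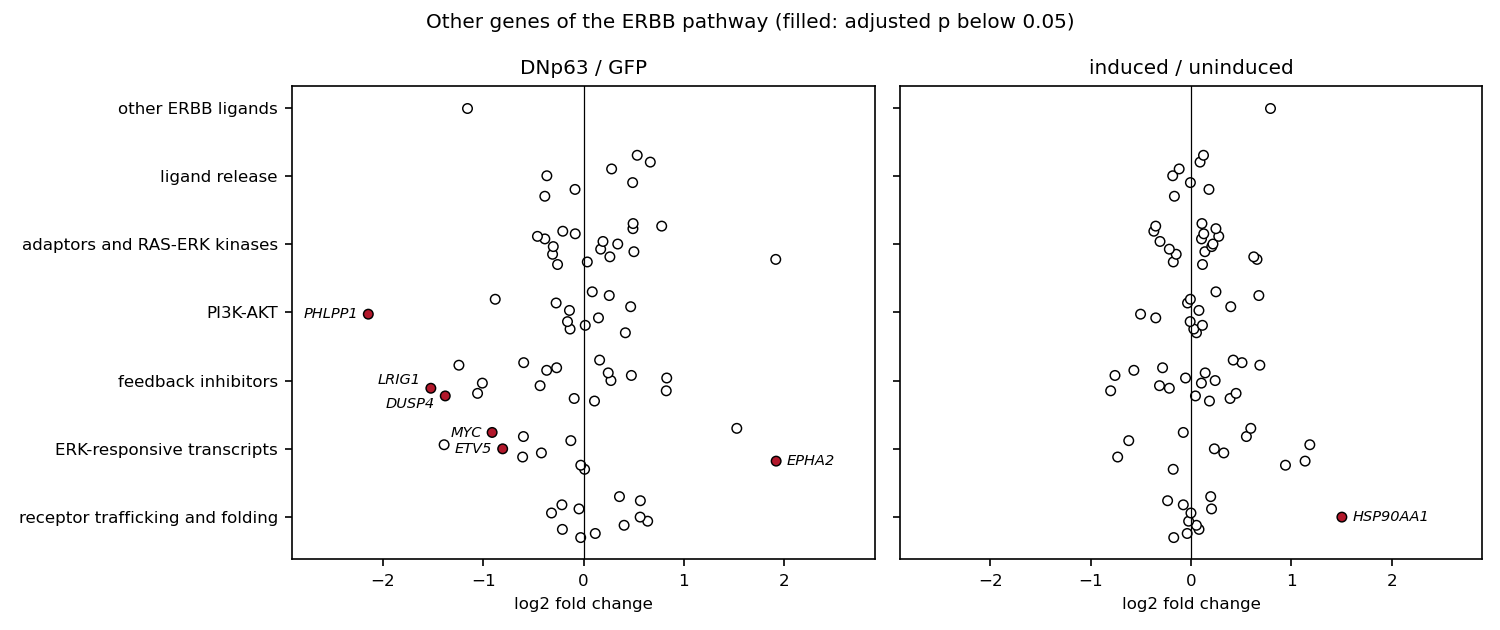
Log2 fold changes of the 76 tested pathway genes by list, for DNp63 against GFP on the left and induced against uninduced on the right, with genes at an adjusted p below 0.05 filled and named. PHLPP1 at −2.14 and EPHA2 at 1.92 lie farthest out among the called genes on the left, and HSP90AA1 at 1.50 is the called gene on the right.

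Finally, the genes whose log2 CPM followed each member most closely over the 8 libraries were listed among 10106 genes averaging 5 CPM or more. TGFA was followed by DBH (r = 0.981) and SHROOM2 (r = 0.976), and ERBB2 by FAM189A1 (r = 0.986) and the hemidesmosome integrin gene ITGB4 (r = 0.975). HBEGF was followed by GOLGA1 (r = 0.994) and the desmoglein gene DSG2 (r = 0.984), and EGFR by MARVELD3 (r = 0.967) and STX6 (r = 0.96). ERBB3 was followed by PPP2R5C (r = 0.993) and NPRL2 (r = 0.969), NRG1 by WWC1 (r = 0.977) and MTA2 (r = 0.958), and BTC by ERCC3 (r = 0.947) and TMEM222 (r = 0.938). These values describe 8 points that share groups and depth, and each pair holds the 2 highest r of 10106 genes.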

How the data were processed

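The authors' deposited table holds raw read counts of genes in 8 library columns. Per the labels' protocols, polyA-selected directional libraries were read from both ends for 38 bp. The submitters' processing notes name hg19, TopHat2 2.1, HTSeq, SAMtools and DESeq2. Annotation and strand setting: not given in the sources used here. Genes were kept by filterByExpr (minimum count 10), leaving 12303 of 26760, scaled with TMM and fitted with edgeR 4.0.16 (R 4.3.3) as 1 mean per group over all 8 libraries, with legacy quasi-likelihood estimates. Tests were two-sided, adjusted by Benjamini-Hochberg over all tested genes. SEs come from that fit. The average is the mean of both systems' effects. CPM uses the scaled sizes. Ratios of sparse counts have 95% exact conditional intervals. The fit was tested on simulated data. Alternatives were DESeq2 1.42.0, its size factors in edgeR, no filter, newer edgeR estimates, a replicate block, each system alone and each library left out. Named genes were the 10, TP63, called list genes in the averaged comparison (at most 4 per list) and the 2 most alike genes. The genes and lists were chosen with earlier results of these data known.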

Additional observations from a re-analysis of the deposited data

Results flagged for a closer look

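In 2 genes the effects of the 2 systems differed by test, as for 0.545% of all tested genes, and in 2 more the libraries moved in opposite directions without overlap, as for 6.81% of all tested genes. TP63, the overexpressed gene itself, differed by −5.99 on the log2 scale, induced minus constitutive (adjusted p = 0.00378), with a log2 fold change of 4.91 for induced against uninduced and 10.90 for DNp63 against GFP. PHLPP1 differed by 1.64 (adjusted p = 0.0305), with −0.50 for induced against uninduced and −2.14 for DNp63 against GFP.

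In ERBB4 both DNp63 libraries lay below both GFP libraries, at 0.572 and 0.194 CPM against 1.85 and 0.847 CPM, and both induced libraries lay above both uninduced libraries, at 3.21 and 1.77 CPM against 0.604 and 1.36 CPM. The log2 ratio of the mean CPM ratios, induced over constitutive, was 3.16, and this difference was not tested because ERBB4 has too few counts. EGF showed the same pattern, and its log2 ratio of mean CPM ratios was 1.96. The fitted difference for EGF was 1.95 ± 0.59 and did not pass the test over all genes (adjusted p = 0.206).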

How the results depend on the processing

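With DESeq2's size factors in edgeR every count named here kept its value within 1.5 times. Without the filter, 1372 genes were called in the averaged comparison against 697, 1791 for DNp63 against GFP against 1004, 242 for induced against uninduced against 35, 558 for the difference between systems against 67 and 245 for uninduced against GFP against 1. The same fit called 8 pathway list genes against 3, and 1 of the 10 genes for induced against uninduced against 0. DESeq2 called 110 genes for induced against uninduced, 255 for the difference, 57 for uninduced against GFP, 5 pathway list genes and 1 of the 10 genes for induced against uninduced. For DNp63 against GFP, a fit to the system's own libraries called 275 genes and 1 of the 10, HBEGF (adjusted p = 0.0443). HBEGF passed the filter only through its high group, so that call is no independent support. For induced against uninduced, a fit to the system's own libraries called 771 genes and 2 of the 10, TGFA and ERBB2.

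Same-numbered libraries deviated together with r = 0.22 between DNp63 and GFP and −0.033 between induced and uninduced, so the numbers do not pair the samples throughout. With a replicate block, 87 genes were called for induced against uninduced, 270 for the difference and 6 pathway list genes, and 1 of the 10 for induced against uninduced, TGFA. The averaged EGFR value passed with the replicate block (1.05, adjusted p = 0.0321), and EGFR passed without the filter (0.93, 0.0261, and 1.40, 0.0105).

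With each library left out, a lone sample being taken to vary like the other groups, the counts of the 10 genes called, HBEGF included, ranged over 1 to 3 (average), 0 to 3 (DNp63 against GFP) and 0 to 1 (induced against uninduced), and pathway list genes over 3 to 6. All genes called ranged over 225 to 1113, 452 to 1438 and 2 to 104 in these comparisons, 0 to 446 for the difference and 0 to 43 for uninduced against GFP. Among values that changed sign, BTC was 0.018 averaged with newer edgeR estimates and NRG1 0.0064 for DNp63 against GFP with DESeq2. With libraries left out, the averages ranged from −0.15 to 0.0773 for ERBB3, −0.34 to 0.34 for BTC and −0.89 to 0.0825 for NRG1. DNp63 against GFP ranged from −0.39 to 0.0776 for ERBB3, −0.24 to 1.13 for BTC and −1.28 to 0.66 for NRG1. The difference ranged from −0.0007 to 0.47 for ERBB3, −0.30 to 0.53 for TGFA and −1.16 to 0.78 for NRG1. Uninduced against GFP ranged from −1.25 to 0.91 for EGFR, −0.13 to 0.40 for ERBB2, −0.42 to 0.40 for TGFA and −0.42 to 0.95 for BTC. The cause was not tested. PHLPP1, EPHA2 and HSP90AA1 kept their averaged calls in all alternatives run. Depth limits ERBB4, AREG, EREG and, in 6 of 8 libraries, HBEGF. It also limits BTC, which had 6 to 21 counts in every library.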

Other observations

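In the RefSeq gene table of GRCh38.p14, EPGN, EREG, AREG and BTC are successive protein-coding genes on chromosome 4. The first 3 had 5, 1 and 0 counts over all 8 libraries, whereas BTC had 6 to 21 counts in every library. TGFA and HBEGF, on chromosomes 2 and 5, lie outside this cluster.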
